A study of Mus musculus with 10 samples.

Results

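The defensin interval is the stretch of mouse chromosome 8 from 18 to 23 Mb in mm9 coordinates, and its members are the 124 array probes that start in it, out of 170305 probes on all chromosomes and 8152 on chromosome 8. The data come from comparative genomic hybridisation of liver DNA from 10 mice of the ZFLacZ transgenic line on oligonucleotide arrays, a method that reads DNA copy number from how strongly labelled DNA binds to oligonucleotide probes. The 5 ICSI-derived animals came from testis cells frozen for 14 years and brought to offspring by intracytoplasmic sperm injection, in which 1 sperm is placed inside an oocyte. Their labels give ZFLacZ sperm, DBA x C57BL/6 oocytes and a transgenic line first made on an SJL x C57BL/6 background. The 5 naturally born animals are labelled as ZFLacZ progeny with no further background, so the maternal strains and the way of derivation cannot be told apart between the groups. Each group held 3 males and 2 females as labelled, and each animal was 1 array. The animal's DNA carried Cy5, and a pool of equal parts of adult C57BL/6, SJL and DBA liver DNA carried Cy3 on every array. All values below are log2 ratios of animal over pool, shifted so that the median autosomal probe of each array is at 0. Thus 0 is the typical autosomal probe and a negative value is less signal from the animal than from the pool.

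Defensins are small, positively charged peptides held together by disulfide bridges, which kill microbes by disturbing their membranes. In the mouse, Paneth cells of the small intestine release alpha-defensins, also called cryptdins, while beta-defensins are made by epithelia of the skin, airways, mouth and male reproductive tract. The genes lie in tandem arrays of closely related copies, and defensin copy number is known to vary in mammals. In the RefSeq table of GRCm38.p6, all 40 genes with a Defa symbol lie on chromosome 8, 29 of them protein-coding. Of the 43 Defb genes, 24 lie on chromosome 8, 11 on chromosome 2, 5 on chromosome 14 and 3 on chromosome 1. In that table's order, the chromosome 8 family runs from Defb40, next to Xkr5, to Defb13, next to Fam90a1a. It holds 64 protein-coding genes, of which 53 have a Defa or Defb symbol and 11 have other symbols. A run of beta-defensin genes from Defb40 to Defb33 comes first, then the alpha-defensin genes from Defa21 to Defa24, then a second run of beta-defensin genes from Defb1 to Defb13. The scanner files carry positions but no gene names or probe sequences, and the table is of another build, so which gene each probe lies in was not analysed here. The defensin name of the interval could therefore not be checked against the probes, and probes are named below by their mm9 start on chromosome 8.

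The arrays lay on 3 slides that each held both groups equally. On 7 arrays neighbouring probes differed with a spread of 0.14 to 0.15, as the scanner software reports it. The noisier arrays were those of ICSI-derived replicate 1 (0.201), ICSI-derived replicate 4 (0.208) and naturally born replicate 2 (0.173). Naturally born replicate 3, labelled male, stood apart, with a mean log2 ratio of -0.033 over chromosome X and of -0.0072 over chromosome Y. The other males lay between -0.61 and -0.55 on chromosome X and between 0.75 and 0.82 on chromosome Y, and the females between 0.26 and 0.28 and between -1.57 and -1.42. The probes described here are autosomal; without that animal 0 members were called between groups, as with it, and 6 rather than 4 above the pool. Each member was a single spot, 123 of the 124 were well above background in both channels on every array, and none was saturated. The number of animals limits the precision of every value below.

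The interval was thinly covered. It held 24.8 probes per Mb, against 81.4 in the 5 Mb before it and 77.6 in the 5 Mb after it. The median distance between neighbouring probes was 12.69 kb, against 10.84 kb over all autosomes. It had 3 gaps of over 200 kb, of 85 such gaps on all autosomes. Coverage was also thin without such a gap, with 16 probes in the first 500 kb. The longest ran for 2.41 Mb between the probe ending at 19676354 and the probe starting at 22089225, and 7 of 161441 distances between neighbouring autosomal probes were at least that long, this one included. The others ran for 390.1 kb from 22233176 and for 229.0 kb from 22625306. The 103 probes before the long gap thus describe the start of the interval and the 21 probes after it the end, and copy number between them was not measured. The first member, at 18002290, lay between 0.10 and 0.37 over the animals and the probe before it, outside at 17973295, between -0.26 and 0.04. The last member, at 22995058, lay between -0.31 and 0.13 and the next probe outside, at 23009974, between -0.08 and 0.21.

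**Figure D1:**
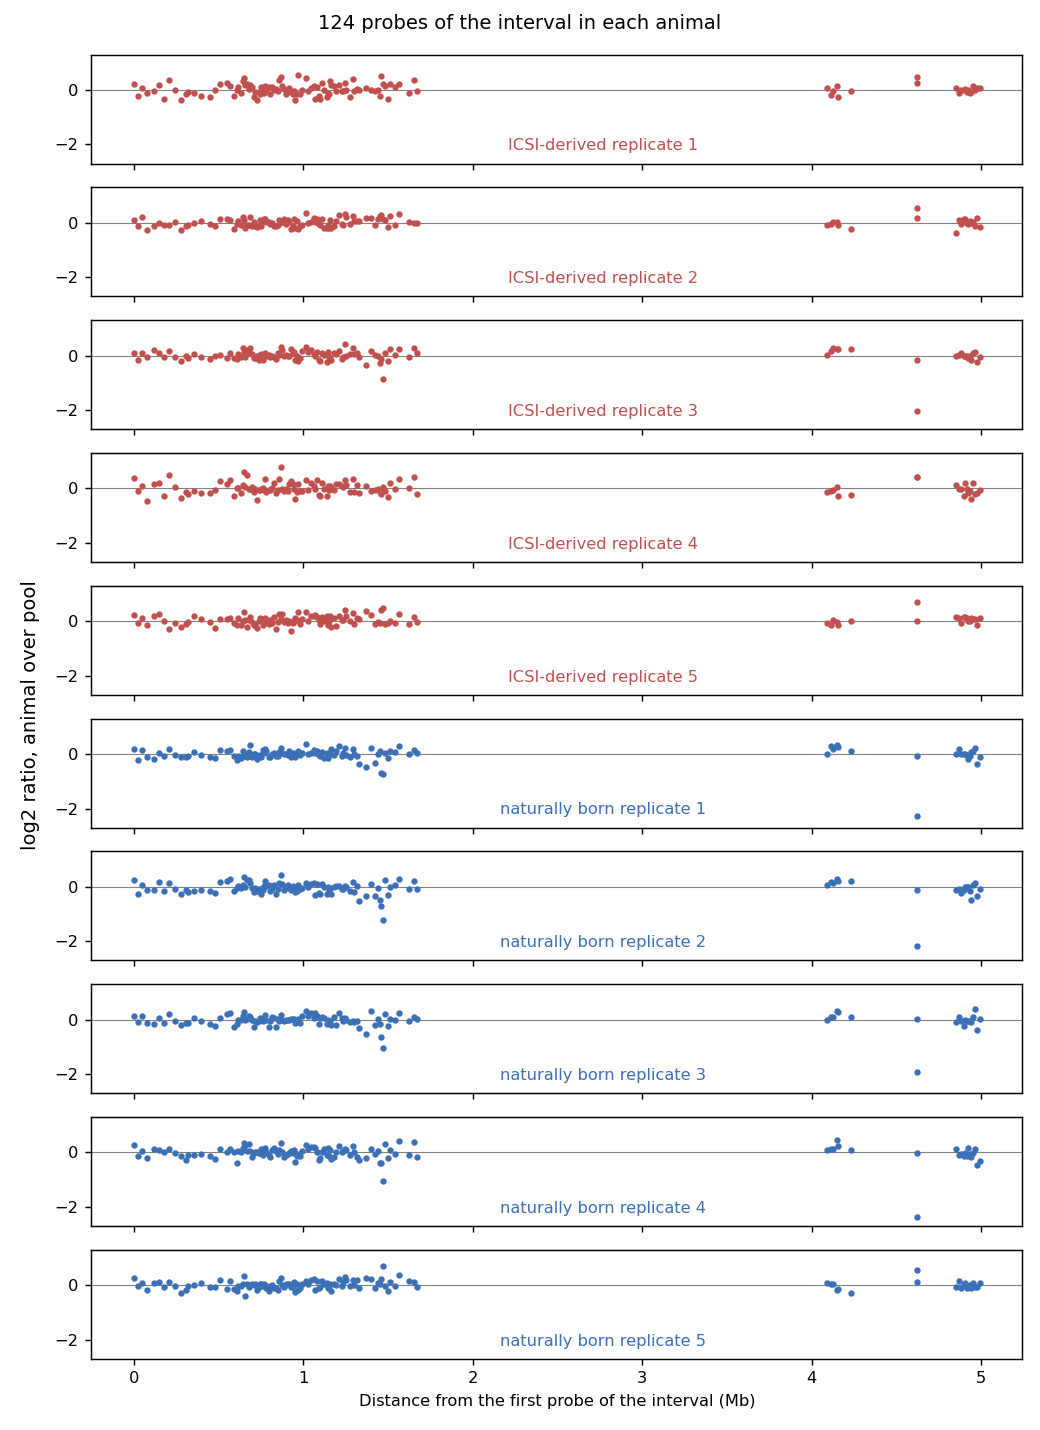
Log2 ratio of animal over pool (vertical axis) for each of the 124 probes against distance in Mb from the first probe of the interval (horizontal axis), 1 panel per animal, ICSI-derived in red and naturally born in blue. In each animal 93 or more of the probes lie within 0.25 of 0, no probe falls in the 2.41 Mb gap, and 1 probe near 4.62 Mb is below -1.9 in ICSI-derived replicate 3 and in naturally born replicates 1 to 4.

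Within each animal, between 93 and 115 of the 124 members lay within 0.25 of 0. The share of autosomal probes that did so was between 75.6% and 90.7%. The SD over the 10 animals had a median of 0.099 over the 124 members, against 0.104 over all autosomal probes and 0.098 and 0.107 in the flanks before and after. All 10 animals lay within that range together at 54 members (43.5%), against 47.6% of autosomal probes. The mean over all members was 0.025, 0.012, 0.0023, 0.013 and 0.044 in ICSI-derived replicates 1 to 5. It was -0.017, -0.064, -0.031, -0.024 and 0.021 in naturally born replicates 1 to 5. The mean over the 124 probes thus stayed within 0.07 of 0 in every animal. This mean speaks mostly for the 103 probes before the long gap and can hide windows that moved in opposite directions. The groups overlapped because naturally born replicate 5 lay among the ICSI-derived animals. The group means were 0.020 ± 0.016 and -0.023 ± 0.031 (SD, n = 5 each), a difference of 0.043, of which 0.030 was left without the single probe at 22623250. The difference between medians over the members was 0.0086. No p is given for these means, since the members were chosen with earlier results known.

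No stretch of gain or loss was called in the interval in any animal. Each autosome of each animal was split into stretches of constant level with at least 5 probes, and a stretch was called at a mean of 0.25 or more from 0. Over the autosomes this gave between 15 and 59 called segments per animal, and 0.679% of autosomal probes were covered by one in at least 1 animal, whereas 0 of the 124 members were. In 9 animals the members lay inside stretches of 1630 to 8152 probes, with levels between -0.0088 and 0.030. In naturally born replicate 2 the stretch was shorter, from 16028564 to 23306611 with 321 probes, and its level was -0.066, not called. Stretches of fewer than 5 probes, and any change inside the gaps, lie outside what this shows. Each split also carries a penalty that grows with the noise of the array. A stretch of few probes therefore had to lie further from 0 than 0.25 to be split off. Small shifts over a few probes, such as those from 22 Mb described below, could not be called.

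In windows of 500 kb, the SD of the window mean over the 10 animals was 0.020 to 0.028 in 3 of the 4 windows before the long gap. It was 0.071 in the window from 19 Mb and 0.13 in both windows after the gap. From 18 Mb (16 probes) the window mean was -0.033 ± 0.029 over ICSI-derived animals and -0.047 ± 0.028 over the naturally born (SD, n = 5 each, here and below). From 18.5 Mb (45 probes), the densest window, they were 0.020 ± 0.022 and 0.0037 ± 0.014, and from 19.5 Mb (7 probes) 0.062 ± 0.025 and 0.043 ± 0.028. In these windows the groups differed by 0.014 to 0.019, which was smaller than the SD of each group except that of the naturally born animals from 18.5 Mb (0.014, against a difference of 0.016). The window from 19.0 Mb (35 probes) held 3 of the 4 most variable probes, with 0.046 ± 0.041 against -0.032 ± 0.076. No probe lay in the windows from 20 to 22 Mb.

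The window from 22 Mb (6 probes) split the animals the opposite way from the one after it. Its means were -0.054, -0.056, 0.20, -0.12 and -0.048 in ICSI-derived replicates 1 to 5 and 0.20, 0.18, 0.15, 0.19 and -0.070 in naturally born replicates 1 to 5. Thus 1 ICSI-derived animal, replicate 3, lay among the high naturally born animals, and 1 naturally born animal, replicate 5, lay among the low ICSI-derived ones. The group means were -0.016 ± 0.12 and 0.13 ± 0.11, a difference of -0.14. In the window from 22.5 Mb (15 probes) the same animals changed ends: ICSI-derived replicate 3 was at -0.17 and naturally born replicates 1 to 4 between -0.25 and -0.15, while the other 5 lay between -0.0062 and 0.11. The group means there were 0.0060 ± 0.10 and -0.15 ± 0.11, a difference of 0.16. That window holds the most variable probe of the interval, at 22623250, and the split of its means rests largely on this 1 probe. The probe lay between -2.37 and -1.93 in the 5 low animals and between 0.42 and 0.71 in the others. In the flanks the group means differed by 0.011 and 0.010.

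**Figure D2:**
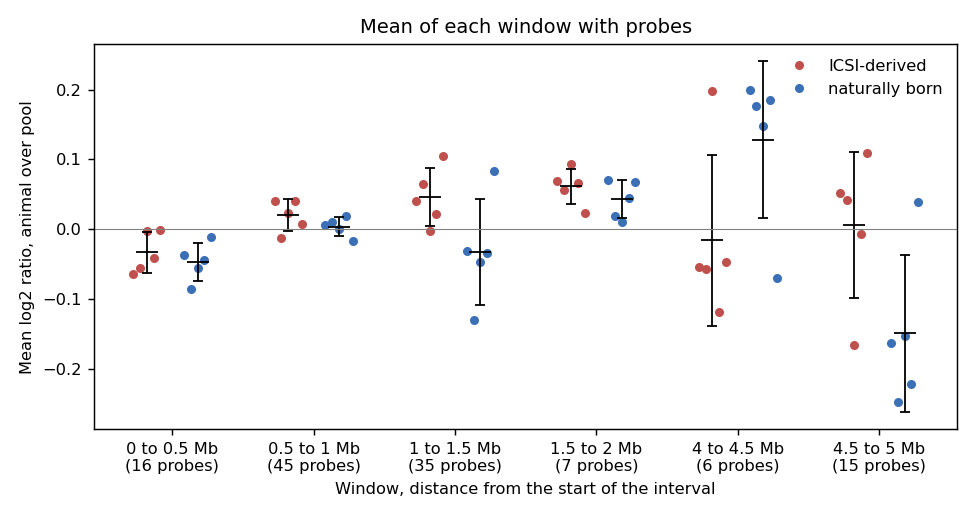
Mean log2 ratio of animal over pool (vertical axis) in each 500 kb window that holds probes (horizontal axis, distance from the start of the interval), 1 point per animal, ICSI-derived in red and naturally born in blue, with group mean and SD (n = 5) as bars. The windows at 4 to 4.5 Mb and 4.5 to 5 Mb spread most, and in both 1 animal of each group lies among the other group. The split at 4.5 to 5 Mb rests largely on the probe at 22623250.

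The largest differences between animals were at a few probes, beside the smaller ones that ran through the window from 22 Mb. The SD over the 10 animals was 0.3 or more at 4 members (3.23%), where 1.57% of autosomal probes reached it, and at 9 and 4 probes of the flanks. The last member past that threshold, at 19374897, had an SD of 0.33 and the next one, at 18973837, an SD of 0.25. The highest was that of the probe from 22623250 to 22623309, 60 bases long and standing alone between the other 2 gaps with a single neighbour. In ICSI-derived replicates 1 to 5 its log2 ratio was 0.49, 0.56, -2.05, 0.42 and 0.71. In naturally born replicates 1 to 5 it was -2.27, -2.18, -1.93, -2.37 and 0.56. The values fell into a low set of 5 animals and a high set of 5, with no animal between -1.93 and 0.42, and both groups had animals in each set. The low set came from slides 1 and 2 and held 4 animals labelled male and 1 female, and the high set came from all 3 slides and held 2 males and 3 females. The group means were 0.026 ± 1.17 and -1.64 ± 1.24. The neighbour at 22625253, starting 2003 bases further on, was at 0.27, 0.17, -0.15, 0.41 and 0.010 in ICSI-derived and -0.080, -0.10, 0.011, -0.025 and 0.10 in naturally born replicates 1 to 5. It leaned the same way, but the 2 sets overlapped there, since ICSI-derived replicate 5 lay just below naturally born replicate 3.

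The swing at 22623250 was in the animals' own channel. Relative to the array median, log2 Cy5 intensity (the animal) ran from -1.98 to 0.99, a range of 2.97, while Cy3 intensity (the pool) ran from 0.28 to 0.43, a range of 0.16. The 5 animals with low ratios had Cy5 values between -1.98 and -1.53, and the other 5 between 0.78 and 0.99. The pool was thus read alike on all arrays. In the animals with high ratios Cy5 lay above Cy3, each relative to the median of its own channel. With no dye swap, a dye effect of this probe and a higher copy number than in the pool cannot be told apart there.

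**Figure D3:**
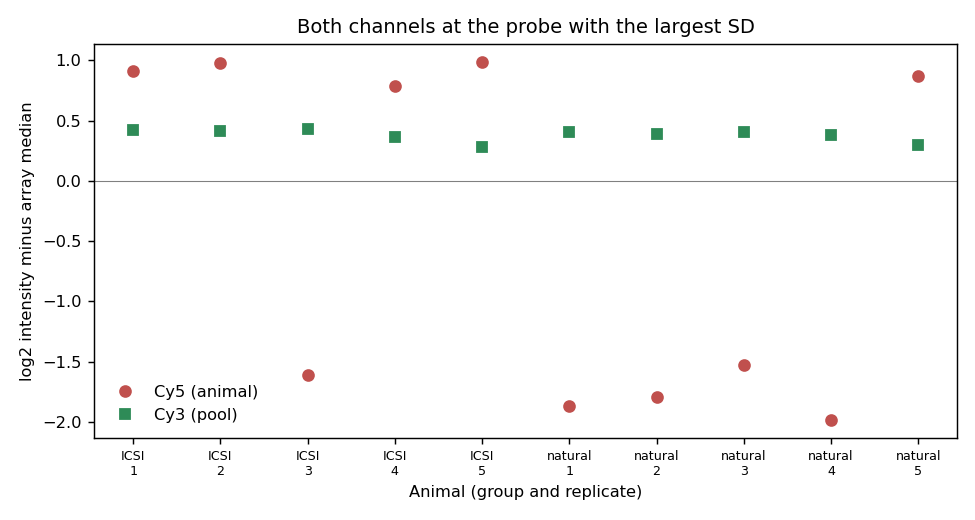
Log2 processed intensity minus the array's median (vertical axis) at the probe at 22623250 on each array (horizontal axis, group and replicate), Cy5 for the animal as red circles and Cy3 for the pool as green squares. Cy3 stays between 0.28 and 0.43, whereas Cy5 is below -1.5 on 5 arrays and above 0.7 on the other 5.

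The other 3 variable probes lay before the long gap, over 95.5 kb. At 19470413 the log2 ratio was 0.24, 0.13, -0.86, 0.056 and 0.47 in ICSI-derived replicates 1 to 5 and -0.72, -1.22, -1.04, -1.05 and 0.70 in naturally born replicates 1 to 5. The same 5 animals were low as at 22623250, with no value between -0.72 and 0.056. This probe was dim, with a log2 pool intensity of -2.42 to -1.83 relative to the array median, and on 1 array it was not well above background. At 19374897 the values were 0.084, 0.19, -0.33, 0.095 and 0.38 in ICSI-derived and -0.48, -0.33, -0.53, -0.20 and 0.26 in naturally born replicates 1 to 5. Those 5 animals were again the lowest, by a narrower step of 0.29. Here the pool channel was above the array median on every array, between 0.081 and 0.39.

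The probe at 19461080 did not follow that split. Its log2 ratio was 0.51, 0.28, -0.11, -0.20 and 0.42 in ICSI-derived replicates 1 to 5 and -0.71, -0.71, -0.64, -0.39 and 0.23 in naturally born replicates 1 to 5. Naturally born replicates 1 to 4 were the lowest animals, but ICSI-derived replicate 4 was also on the low side, below replicate 3. No animal lay between -0.11 and 0.23, which leaves 6 animals low and 4 high. It too was dim, with a log2 pool intensity of -2.004 to -1.530 relative to the array median. The probes between and beside these 3 were less spread, to different degrees. The nearest ones on the low side of 19461080 and 19374897, at 19453322 and 19332979, ran from -0.47 to 0.23 and from -0.52 to 0.071. The probe at 19427788 lay between -0.33 and 0.019, the one at 19405224 lay between -0.084 and 0.30, the one at 19441429 between -0.044 and 0.13, and the one at 19486381 between -0.11 and 0.31. An alternative treatment of the raw spot and background intensities was normexp background correction, with an offset of 50 added to both channels. The offset by itself pulls log ratios of dim probes toward 0. With normexp the group differences at the dim probes shrank from 0.67 to 0.11 (19470413) and from 0.63 to 0.15 (19461080). They rose from 0.34 to 0.43 at 19374897 and from 1.66 to 1.70 at 22623250. Under this setting 2 members rather than 4 had an SD of 0.3 or more.

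**Figure D4:**
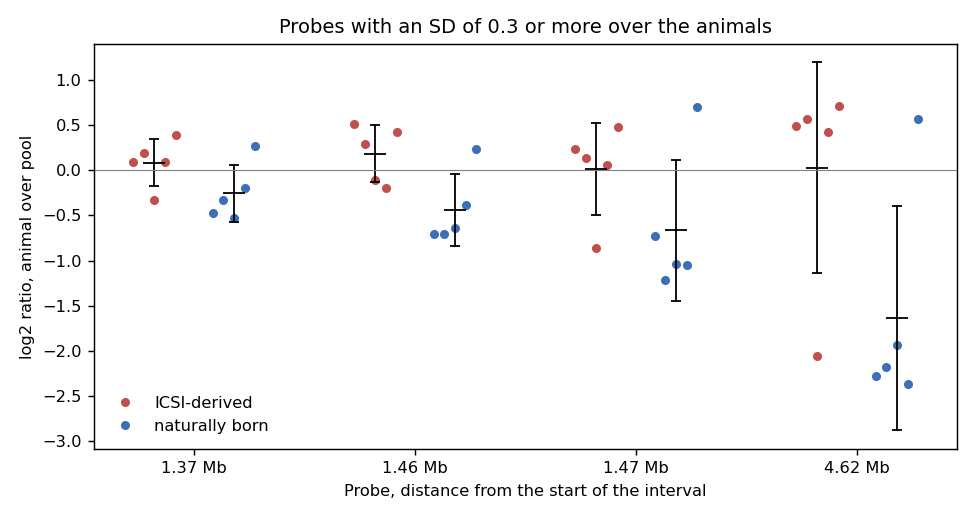
Log2 ratio of animal over pool (vertical axis) at the 4 probes with an SD of 0.3 or more over the animals (horizontal axis, distance from the start of the interval), 1 point per animal, ICSI-derived in red and naturally born in blue, with group mean and SD (n = 5) as bars. At each probe naturally born replicates 1 to 4 lie below 0 and naturally born replicate 5 above 0.2, with the widest step at 4.62 Mb.

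The 12 members with the largest SD also included 8 with smaller values. After 18973837 (SD 0.25) came 22159053 (0.23), 19453322 (0.22), 18211459 (0.22), 18869560 (0.21), 18669414 (0.20), 22975193 (0.20) and 19332979 (0.20). At 22159053 the order of the animals was turned over: ICSI-derived replicate 3 was at 0.23 and naturally born replicates 1 to 4 between 0.21 and 0.27, while the other 5 animals lay between -0.29 and -0.071. At 22975193 they were low again, with ICSI-derived replicate 3 at -0.24 and naturally born replicates 1 to 4 between -0.45 and -0.35, against -0.18 to 0.17 in the others. At the rest of these 8 probes the animals did not separate in this way.

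One order of the animals recurred along the interval. ICSI-derived replicate 3 and naturally born replicates 1 to 4, the 5 animals with low ratios at 22623250, filled one end of the values at 13 members (10.5%), against 0.723% of all autosomal probes. They were the 5 lowest at 6 members and the 5 highest at 7. In the window from 22 Mb they were the 5 highest at 5 of the 6 probes, from 22113295 to 22233117. The step between them and the others was 2.36 at 22623250, 0.78 at 19470413, 0.29 at 19374897 and 0.28 at 22159053 and at most 0.094 at the other 9. This order was picked from the values at 22623250 and crosses the study's groups, so it is a description and gets no test; without that probe the count was 12 of 123 (9.76%). Neighbouring probes share an animal's chromosome and are not independent.

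That order was not limited to the interval. It held at 3.44% and 3.87% of the probes in the 5 Mb before and after. On chromosome 8 outside the interval it held at 287 of the 8028 probes (3.57%), against 867 of 153308 probes on the other autosomes (0.566%). Among those autosomes chromosome 17 had the most, 118 of 6548 probes. Along chromosome 8 in steps of 10 Mb, the share with that order was 0 of 351 probes in the first and 2.59% and 6.14% in the steps that hold the interval. The share was 14.7% from 30 to 40 Mb, 7.32% from 70 to 80 Mb and under 1% from 90 Mb on. The step at 22623250 was not the widest of the region either, since the probe at 16016111, outside the interval, had a step of 3.69 and the one at 16581336 a step of 2.45.

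The study's own question is whether ICSI-derived and naturally born animals differ in copy number. With limma's moderated test over all 161460 autosomal probes, group and labelled sex in the model and Benjamini-Hochberg adjustment, 0 members were called higher in ICSI-derived animals, where 0.0155% of autosomal probes were, and 0 were called lower, where 0.00434% were. At an unadjusted p under 0.05 there were 14 members (11.3%), where the autosomal share was 3.27%. At 22623250 the fitted difference was 1.66 ± 0.54 (SE) with a limma adjusted p of 1.0. It was 0.67 ± 0.29 at 19470413, 0.63 ± 0.18 at 19461080 and 0.34 ± 0.11 at 19374897, all with a limma adjusted p of 1.0. The smallest unadjusted limma p in the interval, 0.00193, was at 19332979. Its values were -0.0066, 0.067, -0.059, -0.18 and 0.071 in ICSI-derived and -0.38, -0.52, -0.30, -0.29 and -0.10 in naturally born replicates 1 to 5. Only naturally born replicate 5 lay among the ICSI-derived animals there, and the fitted difference was 0.30 ± 0.08 with a limma adjusted p of 1.0.

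Over the members, 75 had a higher and 49 a lower mean in ICSI-derived animals, with a median difference of 0.020, against -0.00040 over all autosomal probes. The difference was 0.2 or more in size at 8 members (6.45%), against 2.16% of autosomal probes. The groups did not overlap at 1 member (0.806%), where they did not at 0.51% of autosomal probes. That probe, at 19294288, lay between 0.24 and 0.39 in the ICSI-derived group and between -0.042 and 0.24 in the naturally born, with the 2 groups nearly touching at 0.2408 and 0.2394. On slide 1 alone, which held ICSI-derived replicates 1 and 2 and naturally born replicates 1 and 2, the probes at 22623250 (2.75 ± 0.10, limma adjusted p = 0.000293) and 19461080 (1.10 ± 0.11, limma adjusted p = 0.0455) were called higher in ICSI-derived animals. These calls rest on 4 animals, 2 of each group, none of which is ICSI-derived replicate 3 or naturally born replicate 5. On slide 2 the differences were 1.33 ± 0.45 and 0.36 ± 0.12, with limma adjusted p of 0.833 and 0.766. Slide 3 held 1 animal of each group and was not fitted alone.

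Means against the pool, here and in the next paragraph, are fitted values that weight the groups and the labelled sexes equally. They can differ from the plain mean of the 10 animals. Against the pool, 4 members (3.23%) were above it at a limma adjusted p under 0.05 and a fitted mean of 0.25 or more, where 3.52% of autosomal probes were. Below it by as much were 0 members, where 1.73% of autosomal probes were. Both shares are at or under the background. All animals carried Cy5 and there was no dye swap, so a probe's dye effect and a copy number difference from the pool cannot be told apart. The steadiest was the probe at 19565539, at 0.31 ± 0.024 (SE) with all 10 animals between 0.23 and 0.40. The others were at 18869560 (0.32 ± 0.061), 18651860 (0.32 ± 0.045) and 19021340 (0.30 ± 0.030). Their limma adjusted p lay between 5e-06 and 0.00149. Next in mean were the probes at 19249661 (0.25) and 19294288 (0.23), under the minimum of 0.25.

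The lowest fitted mean was that of 22623250, at -0.70 ± 0.27 with a limma adjusted p of 0.055, against a plain mean of -0.81. Neither mean describes any animal, since the values lay at 2 levels on either side. The next lowest was that of 19470413, at -0.27 ± 0.15 with a limma adjusted p of 0.162, against a plain mean of -0.33. At 18282076 the mean was -0.24 ± 0.030 and all animals were below 0, between -0.38 and -0.11. At 19502359 it was -0.22 ± 0.031, also with all animals below 0, between -0.32 and -0.083. The probes at 18956287 (-0.20) and 22975193 (-0.20) completed the 6 lowest. These 4 had limma adjusted p between 0.000114 and 0.00531 and means smaller in size than 0.25, so they were not called.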

How the data were processed

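The deposited scanner files hold spot intensities of both channels. Per the file headers, Feature Extraction 10.7.3.1 background-subtracted and dye-normalised the processed intensities. The deposited value table holds the scanner files' own log10 ratios unchanged, Cy5 over Cy3. The headers of 6 arrays name mm9 and 4 name no build. Partek 6.5 appears in the submitters' processing notes.

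Control spots were left out, spots of a probe were averaged, and log2 ratios of processed intensities were centred on each array's autosomal median, with no loess. limma 3.58.1 (R 4.3.3) fitted group and sex to all autosomal probes, two-sided, with Benjamini-Hochberg adjustment at 0.05. The pool comparison used the fitted mean, with groups and sexes weighted equally, and also needed it to be 0.25 or more in size. Segments came from optimal partitioning (penalty factor 3). The replicates are separate animals. Both steps were tested on simulated data.

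The members, lists and tests were chosen with earlier results of these data known. Probes named were the 12 with the largest SD, the 6 highest and 6 lowest fitted means, and every window. Others were chosen after their values were seen. Alternatives were other centring, normexp, loess, the log10 ratios, filters, slide and replicate blocks, other thresholds and leaving out each animal. Other steps ran in Python 3.11.15 (pandas 2.3.3, numpy 2.4.6).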

Additional observations from a re-analysis of the deposited data

Results flagged for a closer look

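Within a group of 5 animals, a value was picked out when its gap to the nearest other was more than 0.71 of the group's range, which chance gives in about 1 in 20 sets. It happened in 9 of 54 sets checked, and several of these share animals. Many of the sets were of probes picked from these same values for a large SD or an extreme mean, where that rate need not hold. The 9 can therefore not be read as an excess over it. ICSI-derived replicate 3 or naturally born replicate 5 was the animal in 7 of the 9, and at each of these it lay among the other group's animals or nearer to them. The window mean from 22 Mb was 0.20 in ICSI-derived replicate 3, against -0.12 to -0.048 in the other ICSI-derived animals, and -0.070 in naturally born replicate 5, against 0.15 to 0.20 in the other naturally born animals. The probe at 22623250 was at -2.05 in ICSI-derived replicate 3 (others 0.42 to 0.71) and at 0.56 in naturally born replicate 5 (others -2.37 to -1.93). Naturally born replicate 5 also stood apart at 19470413 (0.70, others -1.22 to -0.72), at 22159053 (-0.12, others 0.21 to 0.27) and at 22975193 (-0.073, others -0.45 to -0.35). The other 2 were different animals: naturally born replicate 1 at 18651860 (0.0001, others 0.30 to 0.35) and naturally born replicate 3 at 19294288 (-0.042, others 0.16 to 0.24).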

How the results depend on the processing

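The count of members called lower in ICSI-derived animals was 0 under all 24 alternatives, and the count called higher was 0 under 23 of them and 2 within slide 1; at an unadjusted p under 0.05 there were 7 to 17. No animal had a called segment in the interval under any of 22 alternatives. Members called above the pool numbered 7 with normexp, 26 with no minimum mean and 0 with a minimum of 0.4. Members called below the pool numbered 3 with normexp, 25 with no minimum, 1 with no sex term, 2 within slide 1, 5 within slide 2, and 0 to 2 when each animal was left out, with 2 without naturally born replicate 5 and 1 without ICSI-derived replicate 1, 2 or 5 or naturally born replicate 4. Members with an SD of 0.3 or more numbered 2 with normexp, and thresholds of 0.2 and 0.5 gave 11 and 2. The group difference of the mean was 0.0086 as a median over members, and 0.0324 to 0.0537 when each animal was left out. No result changed direction, and the causes were not tested. The labels number replicates 1 to 5 in each group, but same-numbered animals correlated between -0.277 and 0.151 and none was closest to its own number. With the replicate block 0 members were called between groups, 4 above and 2 below the pool, and the mean difference stayed 0.0427. Single-probe differences ranged from 1.24 to 2.75 at 22623250, from 0.11 to 1.16 at 19470413, from 0.15 to 1.10 at 19461080 and from 0.25 to 0.54 at 19374897. Slide 3 was not fitted alone.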
